A study of Mus musculus with 6 samples.

Results

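Immediate early genes were examined in adult mouse heart, as 35 listed genes for immediate early and early response proteins. Each was measured by the probe sets annotated to that symbol alone, and all 35 of the 35 had exactly 1 such probe set, among 19938 genes named in this way. The 6 hearts came from mice aged 6 months (postnatal day 180), and each was run on 1 Affymetrix Mouse Gene 1.0 ST array. The wild-type group (WT) had 1 array and no Id allele named in its title. The Id control group had 2 arrays of different genotype. Id control 1 was Id1F/+Id3-/-, with 1 floxed Id1 allele, a wild-type Id1 allele, no functional Id3 and no Cre named. Id control 2 was Tie2Cre+Id1-/-Id3+/-, which lacks Id1 and keeps 1 intact Id3 allele. The Id conditional knockout (Id cKO) was Tie2Cre+Id1F/-Id3-/- on 1 array, with a floxed and a null Id1 allele. An incubated pair of Id cKO hearts completed the series, 1 array treated with IGFBP3, a carrier protein for insulin-like growth factors, and 1 untreated array as its control. The proteins Id1 and Id3 hold E-protein transcription factors off DNA, and Tie2Cre acts in endothelial cells and in blood cells, so heart muscle cells of the knockout keep the floxed allele but lack Id3 as well. The mutant arrays other than Id control 2 share the loss of Id3 in all cells. How many animals gave a sample, and how long the pair was incubated, are details the labels do not give.

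Immediate early genes are switched on within minutes of a stimulus by factors that are already present in the cell, without new protein synthesis. Growth factors, stretch, calcium entry and stress act through the MAP kinases on serum response factor with its ternary complex partners, and through cAMP and calcium on CREB. The first products are mostly transcription factors of the AP-1, EGR and NR4A families, and others are inhibitors, such as MAP kinase phosphatases and the mRNA-destabilising protein tristetraprolin, which end the response. In heart they are known as an early response to haemodynamic load and to ischaemia.

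The promoters of 5 of these genes are shown because they carry the DNA elements through which serum response factor and CREB are known to act, in genes whose values are described below. Each stretch is the 250 bases before an annotated start, 5′ to 3′ on the gene's strand, from RefSeq annotation of GRCm38.p6. Capitals mark CArG boxes, the serum response factor element, and the cAMP response element TGACGTCA or its shorter core TGACG, searched on both strands so that the core also reads CGTCA.
Fos: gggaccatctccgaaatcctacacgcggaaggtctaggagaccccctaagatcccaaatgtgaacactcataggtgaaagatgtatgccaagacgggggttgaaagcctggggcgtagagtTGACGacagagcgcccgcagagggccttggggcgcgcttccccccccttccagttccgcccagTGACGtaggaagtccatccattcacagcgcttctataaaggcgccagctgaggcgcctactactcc
Nr4a1: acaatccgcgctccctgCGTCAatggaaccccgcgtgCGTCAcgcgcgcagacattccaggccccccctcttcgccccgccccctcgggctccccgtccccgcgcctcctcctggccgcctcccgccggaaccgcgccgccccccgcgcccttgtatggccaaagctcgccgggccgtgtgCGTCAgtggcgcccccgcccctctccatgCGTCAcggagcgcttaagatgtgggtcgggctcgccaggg
Dusp1: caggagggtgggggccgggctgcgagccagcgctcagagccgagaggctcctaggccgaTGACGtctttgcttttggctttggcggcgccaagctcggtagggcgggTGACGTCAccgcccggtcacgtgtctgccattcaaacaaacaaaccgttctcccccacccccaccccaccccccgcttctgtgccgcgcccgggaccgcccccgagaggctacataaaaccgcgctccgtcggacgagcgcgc
Zfp36: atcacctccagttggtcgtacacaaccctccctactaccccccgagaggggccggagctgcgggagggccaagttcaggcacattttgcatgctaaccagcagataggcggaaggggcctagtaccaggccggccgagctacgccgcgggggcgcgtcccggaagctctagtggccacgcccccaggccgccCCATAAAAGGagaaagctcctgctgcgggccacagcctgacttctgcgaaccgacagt
Dusp5: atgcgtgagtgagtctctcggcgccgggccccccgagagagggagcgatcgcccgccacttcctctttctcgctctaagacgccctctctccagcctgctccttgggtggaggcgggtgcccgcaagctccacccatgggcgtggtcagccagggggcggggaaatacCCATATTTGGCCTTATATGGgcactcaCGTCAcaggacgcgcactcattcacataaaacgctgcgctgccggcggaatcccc
The Fos stretch lies at chr12:85473640-85473889 on the plus strand and holds 2 TGACG cores and no CArG box. Bases further upstream were not searched, so a CArG box there would be missed. The Nr4a1 stretch at chr15:101266596-101266845, plus strand, holds 4 cores. It precedes a start inside the annotated gene, which spans 101253902 to 101274795. The Dusp1 stretch at chr17:26508473-26508722, minus strand, holds 1 full cAMP response element that begins 143 bases before the start, and its 3 core matches include those within that element. The Zfp36 stretch at chr7:28379229-28379478, minus strand, holds 1 CArG box that begins 58 bases before the start. The Dusp5 stretch at chr19:53528895-53529144, plus strand, holds 2 CArG boxes next to each other, the first beginning 82 bases before the start, and 1 core. Promoter windows of 300 bases, the 250 before and the 50 after each start, were at hand for 28 of the 35 genes. In them the TGACG core matched in 17 of the 28, against 28% of 15614 genes, the full element TGACGTCA in 3 (Maff, Btg2 and Dusp1) against 2.72%, and the CArG box in 3 (Egr2, Dusp5 and Zfp36) against 1.63%. The AP-1 element TGANTCA matched in 1, Csrnp1, against 8.08% of genes. A full element also holds the core. A gene with several windows was counted if any of them matched, and the shares were not matched for base composition or number of windows. A match describes these letters and is no measured binding site.

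Facts of the arrays that bear on the values are as follows. The deposited medians lay between 5.73 and 5.83 (log2) on WT, Id control and Id cKO and at 4.45 and 4.51 on the incubated pair, so the sets were compared only after quantile normalization. Date codes in the labels group WT, Id control 2 and Id cKO together, Id control 1 alone, and the incubated pair alone. What they date is not stated. Xist was at 4.03 in WT and between 2.998 and 3.08 on the incubated pair, against 8.15 to 8.62 on the other 3 arrays, and the Y-linked Eif2s3y ran the opposite way. Id1 and Id3 followed the labelled alleles, with Id3 at 7.18 in WT and 7.32 in Id control 2 and at most 5.02 elsewhere. The heart muscle markers averaged between 11.91 and 13.22 on every array as deposited. Id control 2 stood apart in atrial markers, with a list mean of 9.79 against at most 7.00 on the other arrays.

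The spread of the immediate early genes over the WT, Id control and Id cKO hearts is given without a matching figure for all genes. The 4 arrays spanned less than 1 log2 unit, a 2-fold range, in 29 of the 35 genes and less than 0.5 in 18, with a median span of 0.46 on the deposited scale. The smallest span belonged to Klf6 (0.07) and the largest to Nr4a3 (2.22). On the 2 incubated arrays most of these genes were higher. After quantile normalization the mean level of the 35 genes was 6.79 in the WT heart, 6.76 and 6.89 in the control hearts, and 7.05 in Id cKO, against 7.94 in the treated and 8.43 in the untreated heart. Both incubated arrays thus stood above the other 4 in the mean.

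Incubated hearts were compared with the other 4 on quantile-normalized log2 values, first over the whole list. Genes were tested where the higher set mean was at least 6, which left out Fosl1 and Dusp2. Fos, Fosb, Maff, Egr2, Nr4a2, Myc and Ier2 had means under 6 on the other 4 arrays. They entered through the incubated pair, so the filter fixed their direction, and the counts of genes higher and called include them. Of the 33 tested, 31 were higher in the incubated pair and 2 were lower, and limma with Benjamini-Hochberg adjustment at 0.05 called 24 higher and 0 lower. Among all 10203 genes tested, limma called 13.1% higher and 15.3% lower, and these shares also apply to the counts by role below. Both incubated arrays lay above all 4 others in 25 of the genes (22.2% of all genes) and below all 4 in 0 (27.2% of all genes). At 2-fold or more with no overlap there were 21 higher (4.57% of all genes) and 0 lower (2.78%). The median difference of the tested members was 1.16, against -0.03 over all genes. Both incubated arrays are Id cKO, and the other 4 mix genotypes. Set, incubation, genotype, date code and array scale thus cannot be told apart. A rise below is a higher mean in the incubated pair than on the other 4 arrays, not a change followed within a heart. Of the other 4 arrays WT alone shares the pair's low Xist. In bulk tissue more cells of a type and more RNA per cell cannot be told apart either. The labels do not say that arrays are separate animals, so the p-values measure the spread between these samples only.

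**Figure D1:**
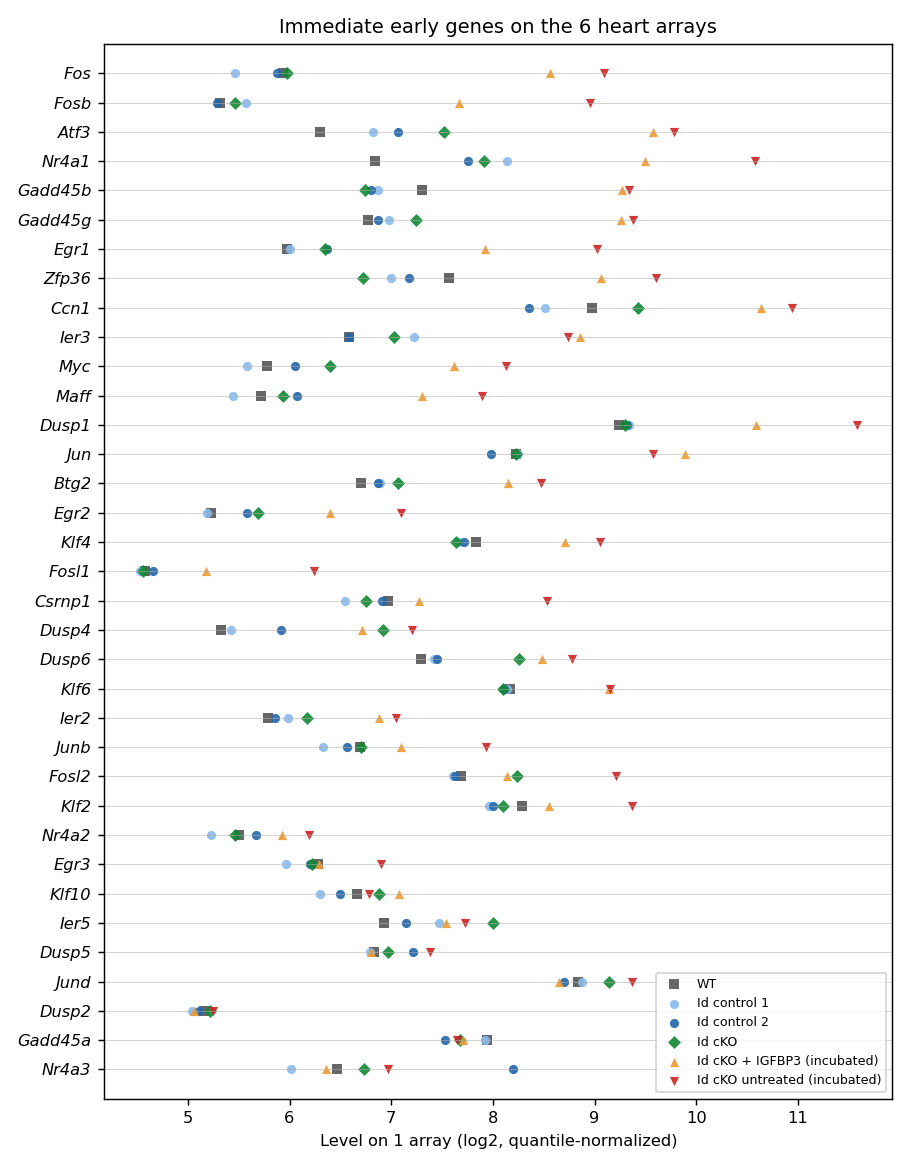
Level of each of the 35 immediate early genes on each of the 6 arrays (log2, quantile-normalized), with 1 symbol per array and genes ordered by the difference between the incubated pair and the other arrays. For Fos the 4 arrays that were not incubated lie between 5.46 and 5.98 and the incubated pair at 8.57 and 9.10, while Nr4a3 is highest in Id control 2 at 8.20.

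AP-1 genes held the steepest differences. AP-1 is a DNA-binding dimer of proteins from the FOS, JUN, ATF and MAF families. Fos, at 85473890 to 85477274 on chromosome 12, was at 5.94 in WT, 5.46 and 5.88 in Id controls 1 and 2, 5.98 in Id cKO, 8.57 in the treated and 9.10 in the untreated heart. Its sets did not overlap, and the difference of 3.02 (SE 0.20, 8.10-fold) passed limma with an adjusted p of 0.000134. Fosb, a close relative of Fos, was at 5.32 in the WT heart, 5.57 and 5.29 in the control hearts, and 5.47 in Id cKO, all under the testing level of 6. On the pair Fosb reached 7.67 treated and 8.96 untreated. Its difference was 2.90 (SE 0.30, adjusted p 0.00110, limma). Atf3, a stress-induced partner and repressor, ran from 6.30 in WT through 6.82 and 7.07 in the Id controls to 7.52 in Id cKO, with 9.58 and 9.78 for the incubated arrays, which were again the highest, by 2.76 (SE 0.29, adjusted p 0.00112, limma), on top of a 1.22 span among the other 4.

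Jun, the main partner of Fos, was at 8.23 in the WT heart, 8.24 and 7.98 in the control hearts, 8.22 in Id cKO, 9.89 in the treated and 9.58 in the untreated heart. It rose by 1.57 (SE 0.15, adjusted p 0.000824, limma) and was the 1 tested AP-1 gene with the treated heart above the untreated. Maff, a small MAF protein without a transactivation domain, was between 5.44 and 6.08 on the 4 arrays with 7.30 treated and 7.89 untreated, a rise of 1.81 (adjusted p 0.00200, limma). Junb, a JUN protein that can restrain Jun, was between 6.32 and 6.71 on the 4 arrays, with 7.10 treated and 7.93 untreated, a rise of 0.94 (adjusted p 0.0192, limma). Fosl2 and Jund did not pass. Fosl2 was at 7.69 in the WT heart, 7.61 and 7.63 in the control hearts, and 8.24 in Id cKO, above the treated heart at 8.14 and below the untreated at 9.21, so its sets overlapped (difference 0.89, adjusted p 0.0542, limma). Jund, the JUN protein made constitutively in most tissues, was between 8.65 and 9.37 on all 6 arrays (difference 0.12, adjusted p 0.694, limma). Fosl1, below the limit for testing, was between 4.53 and 4.65 on the 4 arrays and at 5.18 and 6.24 on the pair. In all, 6 of the 8 AP-1 genes tested were called higher, with a median difference of 1.69.

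Zinc finger factors of the EGR and KLF families followed, with 5 of 7 called higher. Egr1, induced by serum response factor and a regulator of growth factor genes, was at 5.98 in the WT heart, 6.01 and 6.37 in the control hearts, 6.35 in Id cKO, 7.92 in the treated and 9.02 in the untreated heart. The sets did not overlap, with a difference of 2.29 (SE 0.28, adjusted p 0.00196, limma). Egr2 was between 5.19 and 5.69 on the 4 arrays and at 6.40 and 7.10 on the pair, a rise of 1.32 (adjusted p 0.00559, limma). Egr3 was at 5.97 to 6.28 on the 4 arrays and at 6.29 and 6.90 on the pair. Its sets just did not overlap, and limma did not call it (difference 0.43, adjusted p 0.116).

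Among the KLF genes, Klf6 showed the tightest pattern. It was at 8.17 in the WT heart, 8.14 and 8.11 in the control hearts, 8.10 in Id cKO, and 9.14 and 9.15 on the incubated arrays, a rise of 1.02 (SE 0.12, adjusted p 0.00186, limma). Klf4, which acts in vessel-wall and inflammatory cells, was between 7.64 and 7.84 on the 4 arrays and at 8.71 treated and 9.05 untreated, and rose by 1.16 (adjusted p 0.00208, limma). Klf2, a gene of endothelium under laminar flow, was between 7.96 and 8.29, with 8.55 treated and 9.37 untreated, and rose by 0.87 (adjusted p 0.0217, limma). Klf10, induced by TGF-beta, was between 6.30 and 6.88 on the 4 arrays and at 7.08 and 6.78 on the pair, and its difference of 0.34 did not pass (adjusted p 0.195, limma).

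The orphan nuclear receptors of the NR4A family, which act without a known ligand, were unlike each other. Nr4a1 was at 6.84 in the WT heart, 8.14 and 7.75 in the control hearts, 7.91 in Id cKO, 9.50 in the treated and 10.58 in the untreated heart. Both incubated arrays were above the rest, by 2.38 (SE 0.39, adjusted p 0.00459, limma). Without the untreated array the difference was 1.84 and no longer passed (adjusted p 0.0513, limma). Nr4a2 was low throughout, between 5.23 and 5.67 on the 4 arrays and at 5.93 and 6.19 on the pair (difference 0.59, adjusted p 0.0283, limma). Nr4a3 was highest in Id control 2, at 8.20, against 6.46 in WT, 6.02 in Id control 1, 6.73 in Id cKO, 6.36 in the treated and 6.97 in the untreated heart. Its difference of -0.19 did not pass (SE 0.51, adjusted p 0.800, limma).

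Other early regulators were called in 5 of 6 cases. Myc, the growth-promoting transcription factor, was at 5.78 in the WT heart, 5.58 and 6.06 in the control hearts, 6.40 in Id cKO, 7.62 in the treated and 8.12 in the untreated heart, a rise of 1.92 (SE 0.24, adjusted p 0.00209, limma). Ier3, a stress-inducible survival gene, was between 6.58 and 7.22 on the 4 arrays and at 8.86 treated and 8.74 untreated, a rise of 1.95 (adjusted p 0.00114, limma). Btg2, an antiproliferative partner of the mRNA deadenylase, was between 6.70 and 7.07, with 8.15 treated and 8.47 untreated, and rose by 1.43 (adjusted p 0.00145, limma). Ier2, a nuclear protein, was between 5.79 and 6.17, with 6.88 treated and 7.05 untreated, and rose by 1.02 (adjusted p 0.00357, limma). All 3 had sets that did not overlap. Csrnp1, also a nuclear protein, rose by 1.11 (adjusted p 0.0284, limma). For Csrnp1 the treated array at 7.28 was close to WT at 6.97, while the untreated was at 8.53, and without the untreated array the difference was 0.48 (adjusted p 0.135, limma). Ier5 was between 6.93 and 8.01 on the 4 arrays, with Id cKO the highest of all 6, and at 7.54 and 7.72 on the pair (difference 0.24, adjusted p 0.526, limma).

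Inhibitors of the response were called in 3 of 5 cases. Dusp1, a nuclear phosphatase that switches off p38, JNK and ERK, was nearly level on the 4 arrays, at 9.24 in the WT heart, 9.34 and 9.32 in the control hearts, and 9.30 in Id cKO, and was at 10.59 in the treated and 11.58 in the untreated heart. It rose by 1.79 (SE 0.24, adjusted p 0.00251, limma). Zfp36, which encodes tristetraprolin, was at 7.57 in the WT heart, 7.00 and 7.18 in the control hearts, 6.72 in Id cKO, against 9.07 and 9.60 on the pair, a rise of 2.22 (SE 0.25, adjusted p 0.00145, limma). The phosphatases that act mainly on ERK had smaller differences. Dusp6, the cytoplasmic phosphatase of ERK, was between 7.29 and 8.25 on the 4 arrays, highest in Id cKO, and at 8.49 treated and 8.77 untreated. It rose by 1.03 (SE 0.26, adjusted p 0.0218, limma), and it fell short without the array of WT (adjusted p 0.0509), Id control 1 (0.0556), Id control 2 (0.0504), the treated heart (0.0587) or the untreated heart (0.140, limma). Dusp4 was at 5.32 in the WT heart, 5.43 and 5.91 in the control hearts, and 6.92 in Id cKO, between the treated heart at 6.71 and the untreated at 7.204. That overlap left a difference of 1.06 uncalled (SE 0.41, adjusted p 0.0803, limma). Dusp5, whose promoter with 2 CArG boxes is printed above, was at 6.83 in the WT heart, 6.79 and 7.21 in the control hearts, and 6.97 in Id cKO, and at 6.80 and 7.38 on the pair (difference 0.14, adjusted p 0.614, limma). Dusp2, a phosphatase of blood cells, was at 5.04 to 5.25 on all 6 arrays, too low for testing.

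The GADD45 genes, stress sensors that activate p38 and JNK through MEKK4, split. Gadd45b was at 7.30 in the WT heart, 6.87 and 6.80 in the control hearts, 6.74 in Id cKO, against 9.27 and 9.34 on the pair. It rose by 2.38 (SE 0.18, adjusted p 0.000216, limma). Gadd45g was at 6.77 in the WT heart, 6.98 and 6.87 in the control hearts, 7.25 in Id cKO, against 9.26 and 9.38 on the pair, a rise of 2.35 (SE 0.16, adjusted p 0.000140, limma). Gadd45a was between 7.53 and 7.94 on all 6 arrays, and its difference of -0.09 did not pass (adjusted p 0.707, limma). Ccn1, the secreted matricellular protein also known as Cyr61 and a YAP and serum response factor target, was at 8.97 in the WT heart, 8.51 and 8.36 in the control hearts, 9.43 in Id cKO, and 10.64 and 10.94 on the pair, a rise of 1.97 (SE 0.28, adjusted p 0.00310, limma).

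**Figure D2:**
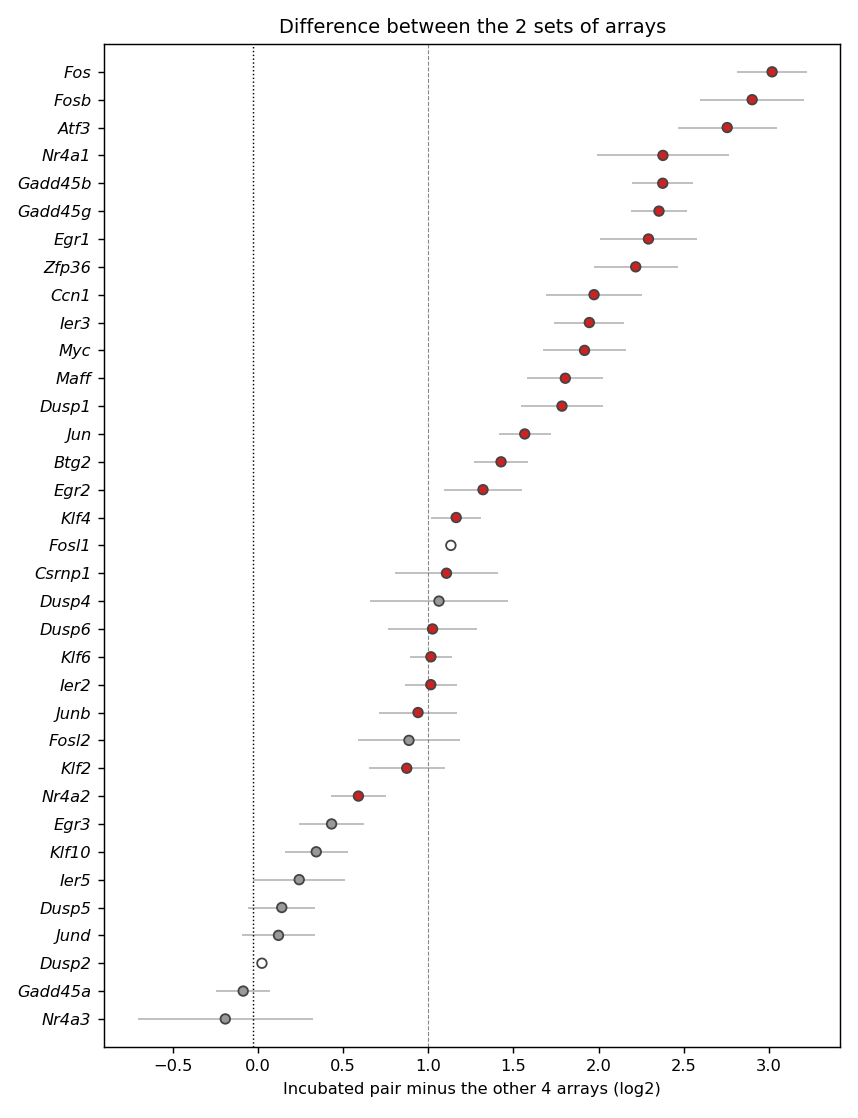
Incubated pair minus the mean of the other 4 arrays for each immediate early gene (log2, quantile-normalized), with limma standard errors as horizontal lines. Red points passed limma at an adjusted p of 0.05, grey points did not, and open points were below the level for testing. The dotted line is the median of all genes, -0.03, and the dashed line is 2-fold. Fos is at the top with 3.02 and Nr4a3 at the bottom with -0.19.

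The calls leaned unequally on the arrays. Of the 24 genes called, 18 were called in every fit that left out 1 of the 6 arrays in turn, and all 24 were called under the 2 other scalings. The 6 lost in at least 1 of those fits were Nr4a1, Csrnp1, Dusp6, Junb, Klf2 and Nr4a2. Leaving out the untreated array gave the fewest, 18, and the adjusted p of Junb was then 0.105 and that of Klf2 0.109 (limma). Klf2 was also lost without Id control 1 (adjusted p 0.0571) or Id control 2 (0.0502), and Csrnp1 without Id control 1 (0.0671) or Id control 2 (0.0502, limma). Nr4a2 was lost without WT (0.0577) or Id control 1 (0.0759, limma), and without the untreated array it was below the level for testing.

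Genes that act above and beside the immediate early genes were read from lists chosen with the study's results known. Beside the counts that follow, limma called 13.1% of all genes tested higher in the incubated pair and 15.3% lower. Of 24 measured kinases and factors upstream of them, 23 were tested, 1 was called higher (Map2k3, by 0.53) and 1 lower (Map2k4, with -0.63, limma), with a list median of -0.09 against -0.03 over all genes. Srf, the gene of serum response factor itself, was at 9.20 to 9.37 on the 4 arrays, 8.37 in the treated and 9.31 in the untreated heart. Of 12 tested bZIP partners outside the list, 5 were called higher (Batf2, Mafk, Bach1, Jdp2 and Nfe2l2), by 0.50 to 0.69, and 0 lower. Of 39 tested genes on a further list of early response genes, 22 were called higher and 1 lower (Tob1, with -1.23), with a median of 0.76. The largest were the inflammatory genes Il6, Ptgs2, Cxcl1 and Ccl2. Il6, an acute-phase cytokine, was at 1.90 in the WT heart, 2.42 and 2.09 in the control hearts, and 2.54 in Id cKO, and at 9.42 and 9.26 on the pair. Ptgs2, the inducible cyclooxygenase, was at 5.28 to 6.15 on the 4 arrays and at 10.75 and 10.94 on the pair. Il6, Ptgs2 and Ccl2, among others, were under 6 in the mean of the 4 arrays, so the filter fixed their direction. Among 9 heat shock genes 5 were called higher and 1 lower (Hspd1, with -0.79), and Hspa1a, the inducible HSP70, was at 5.95 to 6.56 on the 4 arrays and at 10.34 and 10.50 on the pair.

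Cell type markers also differed between the sets on the same scale, where limma called 13.1% of all genes higher and 15.3% lower. The 10 heart muscle markers were all lower in the incubated pair (median -0.29, 3 called by limma), and their mean level was 12.45 and 12.59 on the pair against 12.87 to 13.02 on the others. The 10 macrophage markers were all higher (median 0.56, 4 called), with mean levels of 7.73 and 7.98 against 6.78 to 7.17. All 10 endothelial markers were higher (median 0.84, 5 called), with mean levels of 9.45 and 9.62 against 8.62 to 9.17, and all 9 fibroblast markers (median 0.77, 3 called), with 9.83 on both arrays against 8.05 to 9.37. All 4 tested red cell and platelet markers were higher (median 1.35, 3 called), with mean levels of 7.74 and 7.37 against 5.76 to 7.16. Of 7 tested smooth muscle and pericyte markers 6 were higher (median 0.61, 3 called), with mean levels of 8.686 and 8.597 against 7.75 to 8.42. Lymphocyte markers stayed low, at 4.28 to 4.62 on all arrays. The part of these cells in the differences of the immediate early genes was not tested.

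The incubated untreated heart and the Id cKO heart carry the same genotype in the labels. Between these 2 arrays, which also enter the comparison above and allow no test, 31 of 34 immediate early genes were higher in the untreated incubated heart and 3 were lower. Fos, Fosb, Fosl1, Maff, Egr2 and Nr4a2 were under 6 in Id cKO. They were compared through the untreated incubated heart alone and could only count as higher. The 2-fold limit was passed upward by 22 (4.97% of 10239 genes) and downward by 0 (3.44%), with a median of 1.40 against -0.01 over all genes. The largest were Fosb at 3.49 and Fos at 3.12, then Zfp36 at 2.88, Nr4a1 at 2.67 and Egr1 at 2.67. The 3 that were lower were Ier5 (-0.28), Klf10 (-0.11) and Gadd45a (-0.02). Xist was at 3.08 on the untreated array and 8.62 on the Id cKO array, so incubation, sex pattern, date code and array scale cannot be told apart here.

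Within the incubated pair, the IGFBP3-treated heart had lower levels of most immediate early genes than the untreated heart. These arrays share a date code and a scale, so deposited log2 values were compared, with 1 array a group and no test. Of 32 genes with a level of at least 6 in either heart, 27 were lower with IGFBP3 and 5 higher, or 84.4% lower against 45.1% of all 7474 genes. Egr2, Egr3, Nr4a3 and Dusp4 reached 6 in the untreated heart alone, so they could only count as lower. Klf10 reached 6 in the treated heart alone and could only count as higher. The median difference was -0.46 against 0.05 over all genes. At 2-fold, 5 were lower (0.803% of all genes) and 0 higher (0.495%). The 5 were Fosb (6.89 treated, 8.11 untreated), Csrnp1 (6.49 and 7.70), Nr4a1 (8.70 and 9.74), Egr1 (7.14 and 8.17) and Dusp1 (9.80 and 10.82), with differences from -1.22 to -1.02. With each array centred on its median, Nr4a1, Egr1 and Dusp1 came to -0.98, -0.97 and -0.95, and with quantile normalization Dusp1 came to -0.99. These genes sit at the limit.

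Read by role, all 5 inhibitors tested were lower with IGFBP3, from Dusp1 at -1.02 to Dusp6 at -0.23, and so were 7 of 8 AP-1 genes. Fosl2 was at 7.37 against 8.36, a difference of -0.99 just under the limit, Junb at 6.31 against 7.11 and Jund at 7.86 against 8.51. Jun ran the other way, at 9.10 with IGFBP3 and 8.71 without. Fos itself was at 7.78 against 8.24, a difference of -0.46 at the list median. The EGR genes were all lower, Egr2 with a difference of -0.69 and Egr3 with -0.62, while Klf10 was higher by 0.33. For Egr2, Egr3, Klf10 and, among the inhibitors, Dusp4, the filter fixed the direction. Atf3, Gadd45b and Gadd45g, among the steepest in the incubated pair, were nearly equal in its 2 hearts. Atf3 was at 8.80 and 8.91, Gadd45b at 8.47 and 8.48, and Gadd45g at 8.46 and 8.52. Fosl1, below the level for the comparison, was at 4.29 against 5.43.

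**Figure D3:**
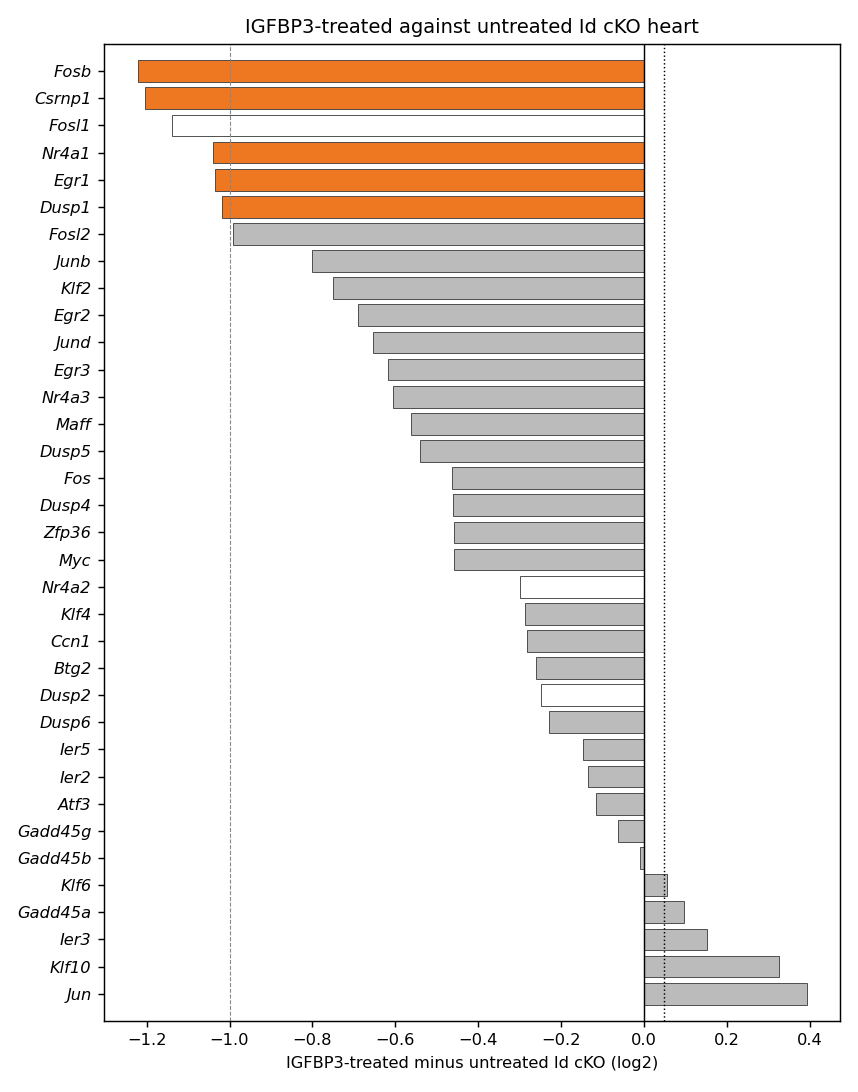
IGFBP3-treated minus untreated Id cKO heart for each immediate early gene (deposited log2 values, 1 array each, no test). Orange bars are at least 2-fold lower, grey bars are less than 2-fold apart, and white bars were below the level for the comparison. The dashed line is 2-fold, and the dotted line is the median of all genes, 0.05. Bars run from Fosb at -1.22 to Jun at 0.39.

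Other genes and cell type markers differed between these 2 hearts too. Of the further early response genes, 28 of 35 were lower with IGFBP3 (median -0.21), and 1, Trib1, was 2-fold lower (-1.23). Over all genes 45.1% were lower and 54.3% higher, 0.803% were 2-fold lower, and the median was 0.05. The upstream kinases and factors were divided, 11 higher and 8 lower, and the difference for Srf was -0.86. Heart muscle markers were higher with IGFBP3 in 8 of 10 (list mean 12.04 against 11.91) and endothelial markers in 8 of 10 (8.83 against 8.59), while macrophage markers were lower in 6 of 9 tested (6.93 against 7.15). With all genes split into 4 equal classes by genomic length, the shortest class leaned downward, with a median of -0.09, and the longest upward, with 0.14. Of the 32 immediate early genes compared, 20 were in that shortest class, with a median of -0.28, and 9 in the next, with -0.54 against -0.04 for all its genes. The part of cell types and of gene length in the result was not tested.

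Loss of Id1 and Id3 was first set against WT. In the Id cKO heart 23 of 31 immediate early genes were higher than in WT and 8 lower on the deposited scale, with a median of 0.29 against 0.0045 over all genes. At 2-fold, 4 were higher (2.2% of 11478 genes) and 0 lower (0.967%). Dusp4 and Egr2 were under 6 in WT, so they were compared through Id cKO alone and could only count as higher. These 2 arrays share a date code, and the comparison has no replicate check. Dusp4, an inducible nuclear phosphatase of ERK, was at 5.81 in WT and 7.33 in Id cKO, a difference of 1.52. Atf3 was at 6.70 and 7.91, Ier5 at 7.28 and 8.39, and Nr4a1 at 7.21 and 8.29. Dusp6 came next, at 7.64 and 8.64, a difference of 0.99 just below the limit. Fos and Jun were almost equal in the 2 hearts, with differences of 0.02 and 0.03, and Egr1 differed by 0.36. The lowest were Zfp36, at 7.92 in WT and 7.13 in Id cKO, and Gadd45b, at 7.65 and 7.15.

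Against the Id controls, a comparison that uses the same Id cKO array as the preceding one, the Id cKO heart was higher in 22 of 31 genes and lower in 9. The median was 0.18 against -0.03 over all genes. Egr2 was under 6 in the mean of the controls and was compared through Id cKO alone. A gene was counted at 2-fold where it was that far from both Id control arrays, and Dusp4 was the 1 counted as higher (0.698% of 11310 genes), with 0 lower (0.424%). It was at 5.83 and 6.32 in the controls against 7.33 in the knockout. Its difference of 1.25 (SE 0.25) was not called by limma (adjusted p 0.236), and it was 1.01 from the nearer control. Among the members limma called 0 (0.0177% of all genes, 2 genes), and 1523 genes had an unadjusted p under 0.05. Ccn1 was at 8.93 and 8.81 in the controls against 9.85 in the knockout, a difference of 0.97 (SE 0.15, adjusted p 0.207, limma). Dusp6 was at 7.84 and 7.89 in the controls and 8.64 in the knockout (difference 0.77, SE 0.14, adjusted p 0.230, limma). For both, Id cKO lay above the 2 controls and above WT, Ccn1 being at 9.34 and Dusp6 at 7.64 there. Nr4a1 did not stand out here, with 8.56 and 8.20 in the controls against 8.29 in the knockout. Within the date code they share, against Id control 2, the median was 0.12 against -0.03 over all genes. Ccn1 and Dusp4 were 2-fold higher there (1.13% of all genes) and Nr4a3 2-fold lower (1.52%).

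**Figure D4:**
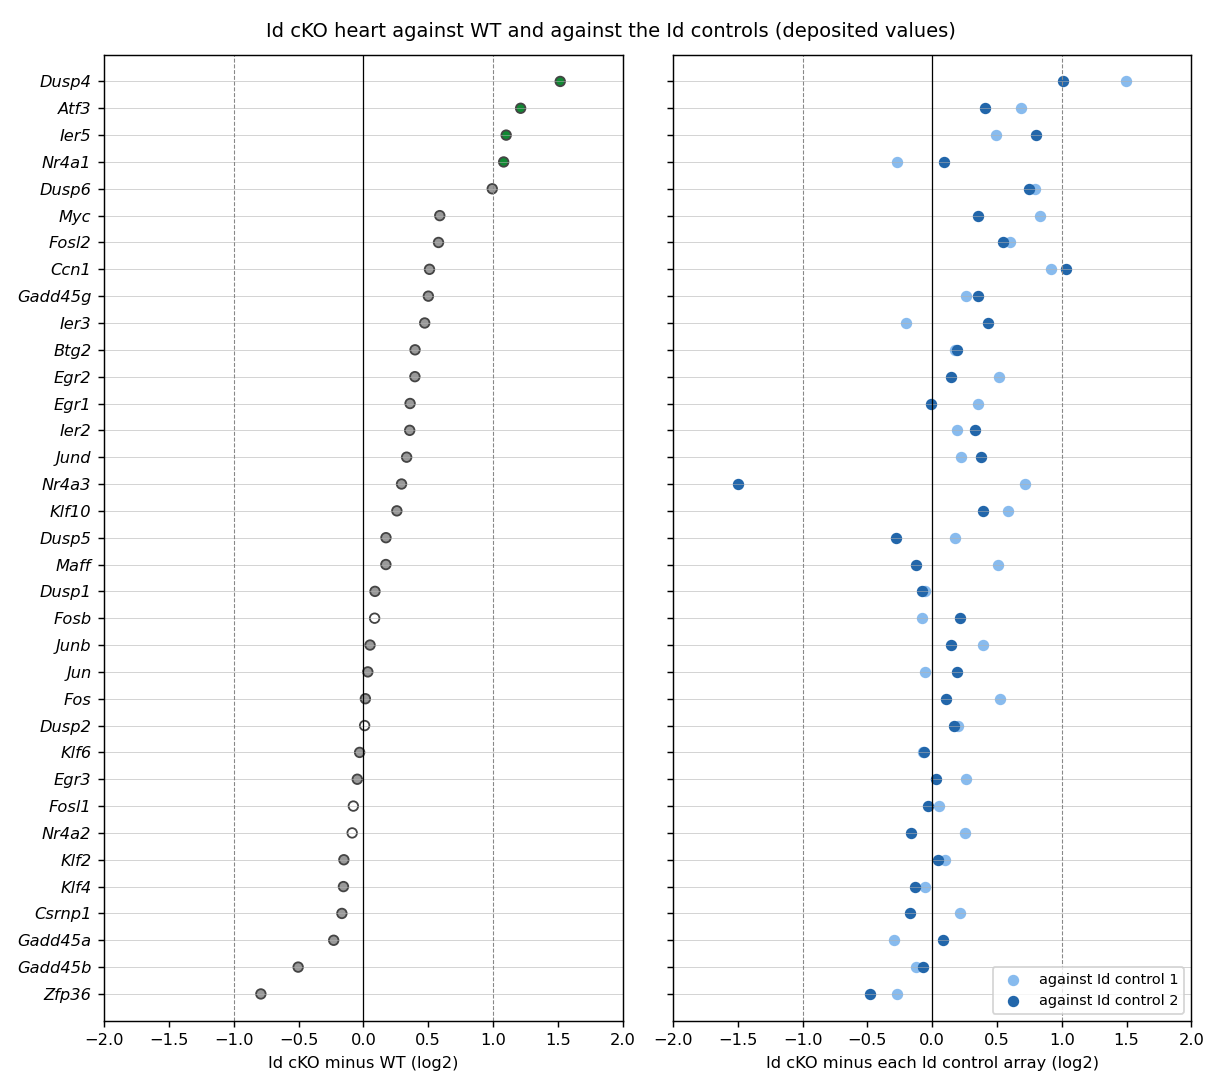
Id cKO minus WT (left) and Id cKO minus each Id control array (right) for each immediate early gene (deposited log2 values). In the left panel green points are at least 2-fold apart, grey points less, and open points were below the level for the comparison, and dashed lines mark 2-fold. Dusp4 lies beyond 2-fold from WT and from both Id controls, while Nr4a3 is 2-fold below Id control 2 alone.

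Cell type markers differed in these comparisons as well. Relative to WT, all 10 endothelial markers were higher in the Id cKO heart (median 0.50, list means 9.57 against 8.98), as were 9 of 10 against the Id controls (median 0.49, list means of 9.05 and 9.09 in the controls). Macrophage markers were lower in 8 of 9 against the Id controls (median -0.31), while against WT 5 were higher and 4 lower. Relative to WT, 5 of 9 fibroblast markers were 2-fold higher and the other 4 were lower (median 1.29), and against the Id controls 4 were higher and 5 lower (median -0.29). All 5 red cell and platelet markers were lower than in WT (median -0.67), by the most in Ppbp, with -3.23, and Alas2, with -1.92. Their list mean was 7.55 in the WT heart, 6.595 and 6.547 in the control hearts, and 6.19 in Id cKO, and all 4 tested were lower than in the Id controls (median -0.48). The part of these markers in the values of Dusp4, Dusp6, Ccn1 and Atf3 was not tested. WT and Id cKO also differ in the Xist and Eif2s3y pattern, so that sex and genotype cannot be told apart in that comparison.

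The Id controls were close to WT over the list, with 16 of 30 genes higher and 14 lower and a median of 0.02 against 0.05. None was 2-fold from WT on both control arrays, that is 0 higher (0.105% of 11407 genes) and 0 lower (0.0964%). By limma 0 of the genes and 0% of all genes were called. At an unadjusted p under 0.05 there were 828, and the smallest adjusted p was 0.0642. Nr4a1 came nearest, at 7.21 in WT and 8.56 and 8.20 in Id controls 1 and 2 (difference 1.17, SE 0.21, adjusted p 0.629, limma). With Id cKO at 8.29, WT was the lowest of the 4 arrays. Atf3 was also lowest in the WT heart, at 6.70, with 7.23 and 7.51 in the control hearts, and 7.91 in Id cKO (difference 0.67 for control against WT, adjusted p 0.629, limma). The fit has 1 residual degree of freedom, from the Id control pair, whose arrays differ in genotype and date code. WT also differs from both Id controls and from Id cKO in the Xist and Eif2s3y pattern, so sex and genotype cannot be told apart where WT is lowest.

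Between the 2 Id control arrays 12 of 31 genes were higher in Id control 1 and 19 lower, with a median of -0.05 against 0.0001. Fos, Maff, Nr4a2, Myc and Dusp4 were under 6 in Id control 1 and could only count as lower. At 2-fold there were 0 higher (0.169% of 11244 genes) and 1 lower (1.04%), Nr4a3, which read 6.42 on the first and 8.64 on the second. WT and Id cKO were at 6.85 and 7.14. The array with high Nr4a3 is also the 1 with high atrial markers, Myl7 being at 12.27 there and at 5.31 in Id control 1, and 5 of 6 tested atrial markers were 2-fold apart. Their part in the level of Nr4a3 was not tested. The next largest gaps were Maff, with a difference of -0.63, and Ier3, with 0.63.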

How the data were processed

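The deposited log2 values of 35557 probe sets on 6 arrays were used; the authors made them with Affymetrix Expression Console and RMA, per the submitters' processing notes, with versions not given in the sources used here. RMA corrects background, normalizes and summarises probes. RNA was 300 ng per array, per the labels' protocols. Only the 21789 probe sets with 1 annotated symbol were used, leaving out 1621 with several and 12147 with none. The probe set with the highest mean stood for a gene. The members and lists were chosen with earlier results of these data known. All 35 members are named, and from other lists the members that passed a call, or the 4 with the largest difference. Of 177 symbols on the other lists, 164 were found.

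Differences were taken within a set of arrays as deposited and across sets after quantile normalization over the 6 arrays. Genes whose group means were all under 6 (log2) were left out of a comparison. A gene with only 1 side at 6 or more entered through that side, so the filter fixed its direction. Size calls are 2-fold, from both Id control arrays where these enter. limma 3.58.1 under R 4.3.3 was fitted over all compared genes with Benjamini-Hochberg adjustment at 0.05, in 5 groups for the Id controls and in 2 sets for the incubated pair. Comparisons of 1 array with 1 array have no test. The fit was tested on simulated data. Alternatives were 3 other scalings, other level limits, the mean of probe sets, other variance settings and leaving out arrays. Promoter sequences came from RefSeq (GRCm38.p6). The number of arrays limits the precision.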

Additional observations from a re-analysis of the deposited data

How the results depend on the processing

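Across the alternatives run, 547 of 607 values were labelled unchanged and 30 moved. A further 29 single-gene values fell under the limit for a call, and 1 median changed sign. A gene can be counted in several settings. Of the unchanged values 434 were for single genes. Among the medians 35 were unchanged and 21 moved, and among the counts by size 48 were unchanged and 9 moved. Unchanged meant the same direction and side of the limit for a single gene, and a shift within the spread for a median. A count was unchanged within a set ratio of the main count. That ratio took in a fall in members called by limma from 24 to 17. The lean upward in the incubated pair, and downward with IGFBP3, held under every scaling and level limit run. In the incubated pair the members' median was 1.23 with median centring, 1.22 with cyclic loess and 1.95 with a level limit of 8, and ranged from 1.0025 to 1.505 when 1 array was left out. limma called 18 to 26 members with 1 array left out and 17 with a level limit of 8. Over all genes limma called 2901, against 5615 with no level limit, 1425 with a limit of 8, 1716 without Id control 1 and 1338 without the untreated array. For untreated minus not incubated Id cKO the median was 1.72 with a limit of 8.

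For IGFBP3 the median was -0.52 with quantile normalization and -0.40 with median centring, which left 3 members 2-fold lower. Median centring also turned the split over all genes, to 0.788% 2-fold higher and 0.433% lower. For Id cKO against WT the median was 0.38 with median centring, 0.17 with no limit or a limit of 5, and 0.21 with a limit of 8, which left 2 members 2-fold higher. Against the Id controls the count of 1 became 0 with median centring, cyclic loess or a limit of 8, and ranged from 1 to 3 with either control left out. The median was 0.13 with median centring and 0.068 with a limit of 8, and ranged from 0.12 to 0.26 with either control left out. For Id control against WT the median was -0.051 with quantile normalization, -0.040 with cyclic loess and 0.13 with median centring, which shifts all genes to a median of 0.17 and counts 1 member, Nr4a1. Without either control array 1 member was counted, and without Id control 1, the comparison within the shared date code, it was Nr4a3. The reversed median was that of Id control 1 minus Id control 2, at 0.0083 with a limit of 8, which leaves 11 members. The causes of the other moves were not tested. Counts at 2-fold rest on genes near that limit. No paired analysis was possible because the labels give no replicate numbers that the groups share.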
